A study of Mus musculus with 6 samples.

Results

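TAM receptors and scavenger receptors, through which cells bind apoptotic debris, lipoproteins and particles, were examined in MC3T3-E1, a line of mouse pre-osteoblasts derived from calvaria. A list of 10 genes was taken by gene name: the TAM receptors Axl, Mertk and Tyro3, their ligands Gas6 and Pros1, and the scavenger or engulfment receptors Msr1, Cd36, Scarb1, Lrp1 and Megf10. Of these, 9 were found among the 26187 genes of the deposited tables, and Msr1 was not analysed here. The PAKG group was cultured for 2 days in osteoconductive (OC) medium with PAKG–8diol–PEG(S) MPs, small microparticles of a polyester built from α-ketoglutarate, 1,8-octanediol and PEG, at 30 μg/mL. The OC group was cultured in the same medium without MPs, so ascorbic acid and β-glycerophosphate were shared by both groups, and neither group carried a genetic change. For each group, 3 samples of poly(A) RNA were sequenced. The study describes these MPs as taken up by phagocytosis, and the comparison here asked how genes of uptake receptors were expressed with and without them. The methods give replicate wells per group for the in vitro experiments in general but not whether each sequenced RNA was 1 such well or a repeat of the experiment, so the p-values cover the spread among the sequenced samples alone, and that spread may be technical.

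TAM receptors are receptor tyrosine kinases that do not bind a dying cell directly. Gas6 and protein S (Pros1) are vitamin K-dependent bridging proteins whose carboxylated end binds phosphatidylserine on the particle and whose other end binds the receptor. Gas6 activates all TAM receptors, whereas protein S acts mainly through Mertk and Tyro3. Scavenger receptors are a mixed group of membrane proteins that bind modified lipoproteins, lipids and debris, and Lrp1 is a large endocytic receptor of the LDL receptor family. These receptors are best known from macrophages, but stromal cells and osteoblasts express several of them.

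The promoters of the TAM genes that the results below turn on are shown because Axl moved in the opposite direction to Gas6 while both lie in the same ligand and receptor system. They are the 250 bases before the RefSeq start on GRCm38.p6, 5′ to 3′ on the gene's strand, and 7 of the 9 genes had a window in that table. Capitals mark matches on either strand to the GC box GGGCGG and to the TEAD motif GGAATG; the AP-1 motif TGANTCA was also searched. The windows lie at chr7:25788734-25788983 on the minus strand for Axl, chr2:128698665-128698914 on the plus strand for Mertk, chr8:13494536-13494785 on the minus strand for Gas6 and chr16:62854057-62854306 on the plus strand for Pros1.
Axl: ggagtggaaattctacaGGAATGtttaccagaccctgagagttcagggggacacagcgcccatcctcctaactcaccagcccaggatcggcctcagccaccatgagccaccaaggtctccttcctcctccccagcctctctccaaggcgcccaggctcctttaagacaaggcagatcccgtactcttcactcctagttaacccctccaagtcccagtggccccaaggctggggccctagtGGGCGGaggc
Mertk: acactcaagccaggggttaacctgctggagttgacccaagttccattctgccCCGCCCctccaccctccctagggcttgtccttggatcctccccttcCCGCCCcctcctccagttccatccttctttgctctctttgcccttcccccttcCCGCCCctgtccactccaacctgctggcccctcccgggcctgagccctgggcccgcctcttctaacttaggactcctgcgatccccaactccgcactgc
Gas6: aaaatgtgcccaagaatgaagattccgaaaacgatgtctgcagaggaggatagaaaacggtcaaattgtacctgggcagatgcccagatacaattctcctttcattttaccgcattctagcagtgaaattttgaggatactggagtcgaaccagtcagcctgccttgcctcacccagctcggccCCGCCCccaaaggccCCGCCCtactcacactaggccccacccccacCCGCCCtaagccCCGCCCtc
Pros1: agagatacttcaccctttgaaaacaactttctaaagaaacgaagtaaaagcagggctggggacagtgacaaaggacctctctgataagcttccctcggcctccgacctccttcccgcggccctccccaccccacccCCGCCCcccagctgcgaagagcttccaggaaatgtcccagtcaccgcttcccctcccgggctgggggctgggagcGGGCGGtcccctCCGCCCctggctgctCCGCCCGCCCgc
A GC box was present in 7 of 7 windows, where 32.7% of 32851 promoter windows of this length held one. Axl had 1 GC box, Mertk 3, Gas6 4 and Pros1 5, of which the last pair in Pros1 overlap each other. The TEAD motif was found in 1 of 7 windows, that of Axl at -233 to -228 from the start, against 12.6% of all windows. The AP-1 motif was found in 0 of 7 against 6.75%. These matches describe letters in a short window and are not binding sites.

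Levels are given as FPKM, which are scaled to transcript length. A shift of replicate 2 with mRNA length remained, as given below, so comparisons of levels between genes are approximate. In OC, Gas6 had the highest mean (61.6 FPKM), followed by Axl (32.8), Pros1 (30.3), Lrp1 (27.9), Scarb1 (10.00), Mertk (6.58), Tyro3 (5.70), Megf10 (0.347) and Cd36, which was listed at 0 in 2 of 3 libraries. Neighbours in this order were separated without overlap of their libraries except Pros1 and Lrp1, and Mertk and Tyro3. In PAKG the order was Gas6 (76.9 FPKM), Lrp1 (27.5), Pros1 (24.5), Axl (17.5), Scarb1 (10.1), Mertk (8.25), Tyro3 (5.19) and Megf10 (0.390), with Cd36 listed at 0 in every library. There, Lrp1 overlapped with Pros1 and Scarb1 with Mertk. Lrp1 stood above Pros1 only in replicate 2 of each group (34.36 against 24.51 FPKM in PAKG and 37.00 against 31.17 in OC). By mean FPKM, Axl moved from the second to the fourth place. By an estimate from the steps between small values, 1 fragment on a transcript of 1 kb was worth 0.0240 to 0.0312 FPKM. On this scale the 7 genes above 1 FPKM rested on roughly 800 to 21000 fragments each per library, whereas Megf10 rested on roughly 55 to 130.

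**Figure D1:**
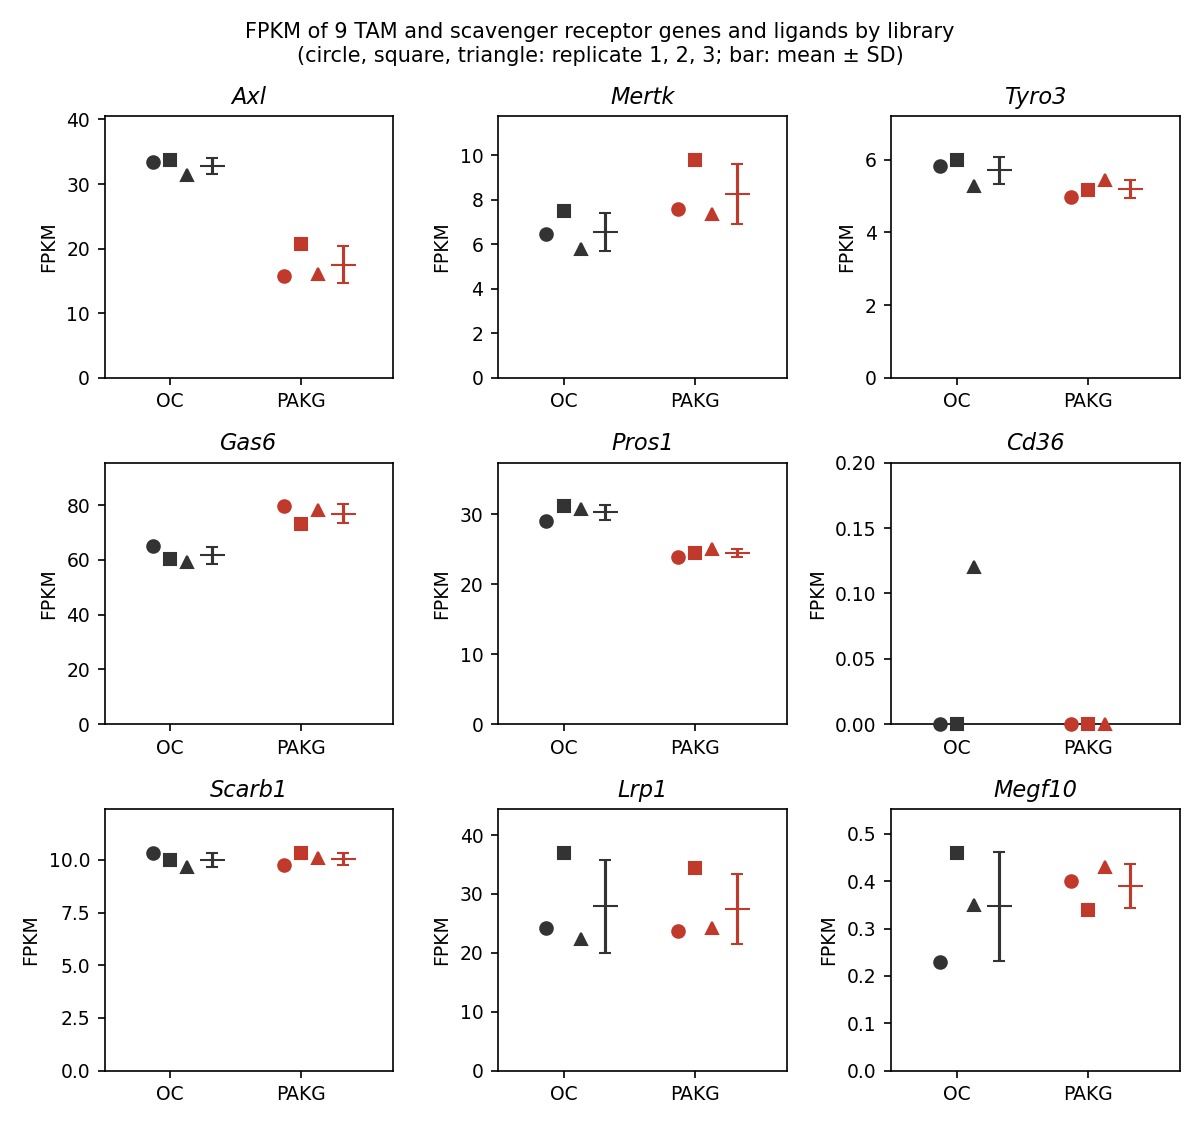
FPKM (y axis, from 0) of the 9 genes in each library, OC (dark) and PAKG (red), 3 of each. Circles, squares and triangles are replicates 1, 2 and 3, and bars beside them are mean ± SD (n = 3, not drawn for Cd36). All PAKG libraries of Axl lie below 21 FPKM and all OC libraries above 31 FPKM, and replicate 2 is high in both groups for Lrp1.

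Axl and Pros1 fell and Gas6 rose with PAKG MPs, and the other tested genes did not pass the test. The test was run in limma for every gene whose mean reached 0.5 FPKM, on log2(FPKM + 0.1), 2-sided, with Benjamini-Hochberg adjustment over 12590 genes, and a gene is said to have risen or fallen at an adjusted p under 0.05. Of the 7 genes tested, 1 rose and 2 fell, and these 3 were also those whose groups did not overlap. Among all genes tested, 14.7% changed (5.97% higher and 8.73% lower), and 33.4% had groups that did not overlap (13.7% with PAKG above OC and 19.6% with PAKG below). At the study's stricter thresholds, which add a fold change of at least 2, 0 of the 7 were differentially expressed in limma, against 1.45% of all genes, and 3 had an unadjusted p under 0.05. The median log2 fold change was -0.01 over the 7 genes and -0.03 over all genes tested. In cultures sampled in bulk, fewer cells that express a gene and less of its RNA per cell cannot be told apart.

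Axl (ENSMUSG00000002602, chromosome 7, 25757273 to 25788705, GRCm38), the TAM receptor that signals through Gas6, was the member with the largest change. Its FPKM was 33.34, 33.74 and 31.40 in OC replicates 1 to 3 and 15.73, 20.78 and 16.03 in PAKG replicates 1 to 3. The groups did not overlap, PAKG being the lower, and PAKG replicate 2 was the highest of its group. The mean fell from 32.8 ± 1.25 to 17.5 ± 2.83 FPKM (SD, n = 3), at a log2 fold change of -0.91 (SE 0.11, limma adjusted p = 0.00215), that is 0.531-fold (95% interval 0.442 to 0.637). Axl ranked 326 of 12590 genes by p. It lay just short of the fold threshold of 2, and without PAKG replicate 2 its log2 fold change was -1.04 (adjusted p = 0.000444).

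Mertk, the TAM receptor best known for clearance of apoptotic cells by phagocytes (ENSMUSG00000014361, chromosome 2, 128698956 to 128802894), was higher in PAKG within each replicate number but its groups overlapped. Its FPKM was 6.47, 7.48 and 5.78 in OC replicates 1 to 3 and 7.58, 9.80 and 7.38 in PAKG replicates 1 to 3. Replicate 2 was the highest of each group, and PAKG replicate 3 lay below OC replicate 2. The log2 fold change was 0.32 (SE 0.14, limma adjusted p = 0.174), or 1.25-fold with a 95% interval of 0.999 to 1.56. With the replicate number as a block the SE was 0.06 and the adjusted p 0.0122, and the ratios of PAKG to OC within replicates 1, 2 and 3 were 1.17, 1.31 and 1.28. The call for Mertk therefore depended on whether the replicate number was used as a block.

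Tyro3, the third TAM receptor (ENSMUSG00000027298, chromosome 2, 119797733 to 119818104), had the lowest level of the TAM receptors in both groups. Its FPKM was 5.83, 5.99 and 5.28 in OC and 4.97, 5.16 and 5.45 in PAKG, and the groups overlapped. The log2 fold change was -0.13 (SE 0.08, limma adjusted p = 0.351), with a 95% interval from 0.799- to 1.04-fold.

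The make-up of the TAM receptors was compared within each library, where scaling of the library has no effect. Axl took 73.1%, 71.5% and 74.0% of the summed FPKM of Axl, Mertk and Tyro3 in OC replicates 1 to 3 and 55.6%, 58.1% and 55.5% in PAKG replicates 1 to 3. The groups were well apart, and PAKG replicate 2 was the highest of its group, above replicates 1 and 3, which nearly coincided. The mean share was 72.8 ± 1.26% in OC and 56.4 ± 1.48% in PAKG (SD, n = 3; exact permutation test, 2-sided, p = 0.1, the smallest value that 3 against 3 libraries can give). Mertk took 14.5 ± 1.16% in OC and 26.6 ± 0.941% in PAKG, and Tyro3 took 12.6 ± 0.176% and 17.0 ± 2.29%. The shares have a fixed sum, so a lower Axl raises the others even where their own level does not rise. Mean FPKM went from 5.70 to 5.19 for Tyro3 and from 6.58 to 8.25 for Mertk, and neither passed the test. The summed FPKM of the TAM receptors ranged from 42.5 to 47.2 in OC and from 28.3 to 35.7 in PAKG.

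Gas6, the ligand common to all TAM receptors (ENSMUSG00000031451, chromosome 8, 13465374 to 13494490), rose with PAKG MPs. Its FPKM was 65.14, 60.40 and 59.26 in OC and 79.53, 73.03 and 78.07 in PAKG, with the PAKG libraries higher and no overlap. The mean rose from 61.6 ± 3.12 to 76.9 ± 3.41 FPKM (SD, n = 3), with a log2 fold change of 0.32 (SE 0.07, limma adjusted p = 0.0240), or 1.25-fold. The call was lost without OC replicate 2 (adjusted p = 0.0645), OC replicate 3 (0.107), PAKG replicate 1 (0.0815) or PAKG replicate 3 (0.117). Over all genes, the number called also fell in these fits, from 1850 to 1417, 871, 1117 and 831 in that order. The 3′ end of Gas6 overlaps Tmem255b on the opposite strand, which was listed at 0.08 FPKM or less. The library kit keeps the strand, but whether counting used it is not given.

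Pros1, which encodes protein S, also an anticoagulant of plasma (ENSMUSG00000022912, chromosome 16, 62854307 to 62929346), fell with PAKG MPs. Its FPKM was 29.13, 31.17 and 30.73 in OC and 23.89, 24.51 and 25.00 in PAKG, with no overlap between the groups. The mean fell from 30.3 ± 1.07 to 24.5 ± 0.556 FPKM (SD, n = 3), with a log2 fold change of -0.31 (SE 0.06, limma adjusted p = 0.0174), or 0.807-fold. The call was lost with libraries rescaled to a common total (-0.26, adjusted p = 0.0673) and without OC replicate 2 (0.0520), OC replicate 3 (0.0835), PAKG replicate 1 (0.0633) or PAKG replicate 3 (0.0782). Calls over all genes were fewer in each of these fits too. The ratio of Gas6 to Pros1 FPKM within a library was 2.24, 1.94 and 1.93 in OC and 3.33, 2.98 and 3.12 in PAKG. This ratio was higher in every PAKG library than in any OC library (exact permutation test on the log2 ratio, 2-sided, p = 0.1, the smallest value possible).

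**Figure D2:**
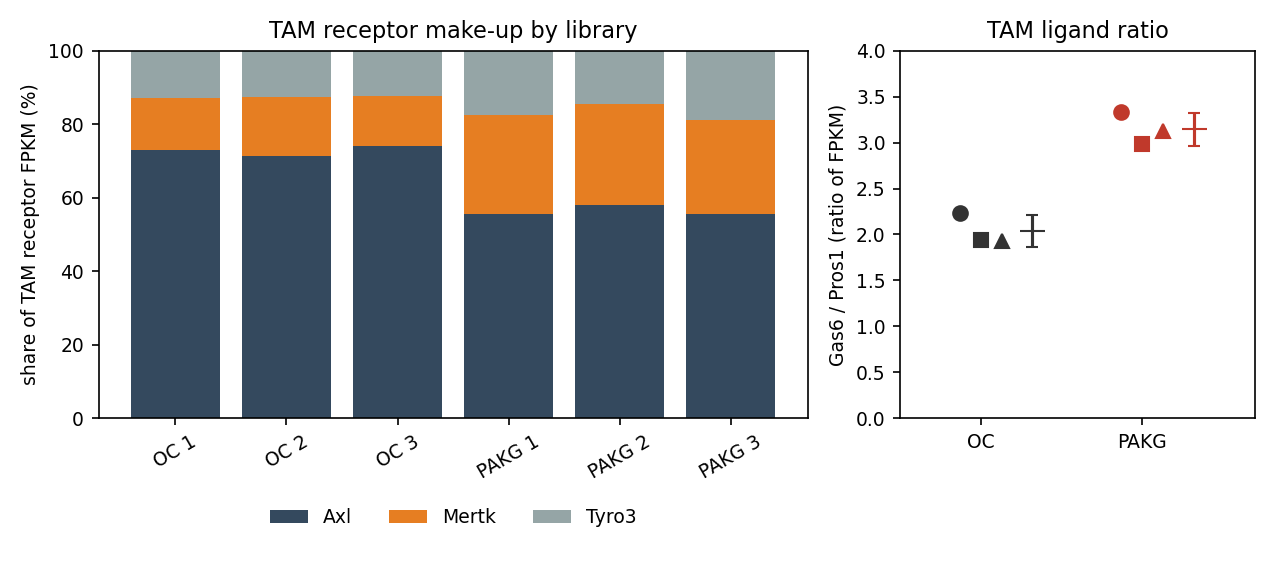
Left, share of the summed FPKM of Axl, Mertk and Tyro3 taken by each gene (y axis, %), in each of the 6 libraries. Right, ratio of Gas6 to Pros1 FPKM in each library, with mean ± SD (n = 3) beside the points. Axl takes 71.5 to 74.0% in OC and 55.5 to 58.1% in PAKG, and the ligand ratio lies at 1.93 to 2.24 in OC and at 2.98 to 3.33 in PAKG.

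Among scavenger receptors, Scarb1, which takes up cholesterol esters from high-density lipoprotein (ENSMUSG00000037936, chromosome 5, 125277087 to 125341094), was nearly level across all libraries. Its FPKM was 10.34, 10.00 and 9.65 in OC and 9.75, 10.34 and 10.07 in PAKG, and the groups overlapped fully. The log2 fold change was 0.01 (SE 0.07, limma adjusted p = 0.957), and the 95% interval ran from 0.902- to 1.12-fold.

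Lrp1, the endocytic receptor for apolipoprotein E and protease complexes (ENSMUSG00000040249, chromosome 10, 127538161 to 127621148), varied more between replicate numbers than between groups. Its FPKM was 24.29, 37.00 and 22.42 in OC and 23.71, 34.36 and 24.28 in PAKG. Replicate 2 was the highest library in both groups, and the other 4 libraries lay between 22.42 and 24.29. The log2 fold change was -0.01 (SE 0.21, limma adjusted p = 0.987; 95% interval 0.704- to 1.40-fold), and with the replicate block the SE was 0.06 (adjusted p = 0.925).

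Replicate 2 of both groups differed from the other libraries along with mRNA length, which bears on the long transcripts of this set. The longest annotated mRNA is 14888 nt for Lrp1, 4460 nt for Tyro3, 4302 nt for Mertk and 4265 nt for Axl. It is 3303 nt for Pros1, 2548 nt for Gas6 and 2521 nt for Scarb1. Over 10721 genes, which are not independent replicates and share the same libraries, Spearman's rho between mRNA length and the log2 difference of replicate 2 from the mean of replicates 1 and 3 was 0.70 in PAKG and 0.69 in OC. For mRNAs of at least 10 kb the median difference was 0.42 in PAKG and 0.38 in OC (240 genes), and for those under 2 kb it was -0.25 and -0.18 (2653 genes). For Lrp1 the difference was 0.52 in PAKG and 0.66 in OC, for Mertk 0.39 and 0.29, and for Axl 0.39 and 0.06. For Tyro3, whose mRNA is longer than those of Mertk and Axl, it was -0.012 in PAKG and 0.11 in OC. It was -0.11 and -0.041 for Gas6, 0.0042 and 0.059 for Pros1, and 0.061 and 0.0016 for Scarb1. The labels do not say what the replicate number marks, and the part of RNA integrity or library preparation in this difference was not tested. Without replicate 2 of both groups, a choice made after the data were seen, Axl (-1.02, adjusted p = 0.00116), Gas6 (0.34, 0.0185) and Pros1 (-0.29, 0.0237) kept their calls, and Mertk remained above the threshold (0.29, 0.0534).

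**Figure D3:**
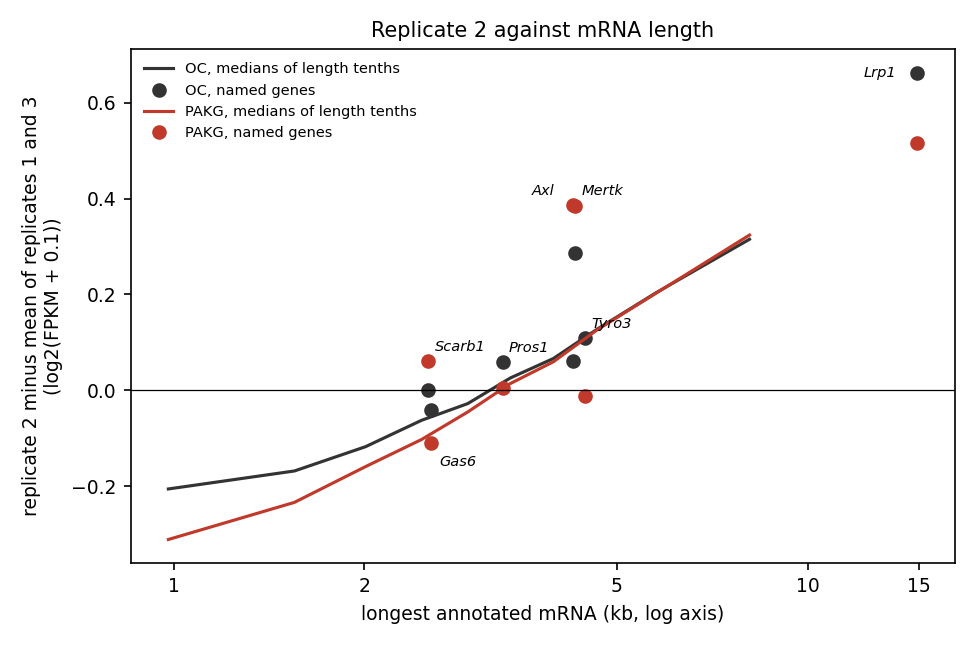
Log2 difference of replicate 2 from the mean of replicates 1 and 3 (y axis) against the length of the longest annotated mRNA in kb (x axis, log scale). Lines join the medians of 10721 genes binned by length and points are the 7 tested genes, in OC (dark) and PAKG (red). Lrp1, the longest at 14888 nt, lies at 0.66 in OC and 0.52 in PAKG.

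Megf10 and Cd36 lay below 0.5 FPKM and received no test. Megf10, an engulfment receptor of astrocytes and muscle satellite cells (ENSMUSG00000024593, chromosome 18, 57133090 to 57297467), had 0.23, 0.46 and 0.35 FPKM in OC and 0.40, 0.34 and 0.43 in PAKG, with overlapping groups. Cd36, the fatty acid transporter and receptor for oxidized lipoproteins (ENSMUSG00000002944, chromosome 5, 17781690 to 17888801), was listed at 0 in all libraries except OC replicate 3, where it had 0.12 FPKM, or roughly 15 fragments. OC replicate 3 was also the library with adipocyte transcripts. The summed FPKM of the markers Adipoq, Plin1, Fabp4, Cidec, Lep and Cfd was 1.82 there, and between 0 and 0.06 in the other 5 libraries. Lpl, the lipoprotein lipase gene, was likewise at 0.21 FPKM in OC replicate 3 and at 0 in the others. The part of adipocyte RNA in the Cd36 value was not tested.

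**Figure D4:**
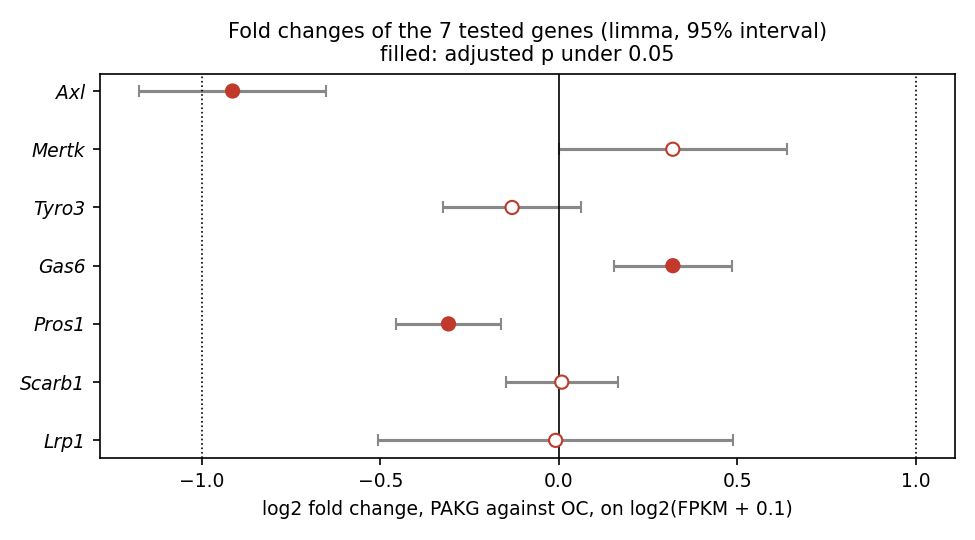
Log2 fold change of PAKG against OC (x axis, on log2(FPKM + 0.1)) for the 7 tested genes, with limma's 95% interval as bars. Filled points passed an adjusted p under 0.05, and dotted lines mark a fold change of 2 in either direction. Axl lies at -0.91, Gas6 at 0.32 and Pros1 at -0.31, and Lrp1 has the widest bar.

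The cells carried the transcripts of their labelled type. All 9 osteoblast lineage markers were tested, of which 7 rose and 1 fell, and their summed level was 5905 to 6944 FPKM in OC and 8602 to 9226 in PAKG. Sp7, an osteoblast transcription factor, rose from 33.06 to 35.16 FPKM in OC to 84.17 to 90.90 in PAKG, whereas Spp1, encoding osteopontin, fell from 272 ± 25.7 to 192 ± 17.8 FPKM (log2 fold change -0.50, limma adjusted p = 0.0186; lost in 4 of 15 alternatives, among them those without PAKG replicate 3, OC replicate 1 or OC replicate 3). The part of this shift in the levels of the members was not tested. Of 14 macrophage and blood cell markers, 7 had values. Ptprc was at 0.01 FPKM or less and Spi1 at 0.07 or less in every library, while Lyz2, encoding lysozyme, rose from 10.3 ± 1.60 to 16.1 ± 0.866 FPKM (log2 fold change 0.64, limma adjusted p = 0.0120; lost without PAKG replicate 3). The summed level of these 7 markers was 9.37 to 12.14 FPKM in OC and 16.84 to 18.37 in PAKG. Most of this sum was Lyz2, and Cd68, the other tested marker, was at 0.560 ± 0.0608 FPKM in OC and 0.530 ± 0.177 in PAKG, with overlapping groups. Among the untested markers, Fcer1g had 0 to 0.16 FPKM in OC and 0.55 to 1.35 in PAKG. Csf1r had 0.06 to 0.12 FPKM in OC and 0.22 to 0.29 in PAKG. Neither overlapped between the groups, whereas Ptprc, Spi1 and Laptm5 did. Among all genes tested, 33.4% had groups that did not overlap, and that share was not computed for genes below the filter. The sum was higher in PAKG, as was Gas6, and its part in the level of Gas6 was not tested. Endothelial markers with values, Pecam1 and Cdh5, summed to 0.03 FPKM or less in every library.

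For each member that changed, the genes whose profile over the 6 libraries was most alike were sought among 9177 tested genes whose mean reached 2 FPKM. Likeness was the root mean square difference of the centred log2 values. Closest to Axl were Cd109, a membrane-anchored co-receptor in TGF-β signaling (0.0275 log2 units), and E2f8, an E2F-family repressor of the cell cycle (0.0416). Cd109 had 30.14, 31.92 and 29.05 FPKM in OC and 14.92, 19.42 and 15.36 in PAKG, and so shared the higher value of PAKG replicate 2. Closest to Gas6 were Impdh1, an enzyme of guanine nucleotide synthesis (0.0214), and Ppp1r15a, a phosphatase subunit of the stress response (0.0226). Closest to Pros1 were Zfp36l2, which promotes mRNA decay (0.0233), and Nampt, of NAD salvage (0.0245).

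Genes that work beside these receptors were then counted in 6 lists, which hold 117 genes, of which 85 were tested. Of these, 9 rose and 10 fell, so 22.4% changed, against 14.7% of all genes tested. The median log2 fold change was -0.03, equal to that of all genes after rounding. Of the 19 genes named below as changed, 8 kept their call under each of 15 alternative settings (Socs3, Scara3, Lrp5, Mylip, Cav1, Cav2, Fabp5 and Coro1c), and 11 lost it under at least 1. With OC replicate 3 left out, all of these 11 (Vkorc1, Gulp1, Anxa1, Scarf2, Mrc2, Colec12, Scara5, Dab2, Lrp8, Npc2 and Actr2) lost their calls, and with PAKG replicate 3 left out all but Dab2. With PAKG replicate 1 left out all but Anxa1 and Dab2 lost theirs. Over all genes, 1850 changed with every library kept, 871 without OC replicate 3, 831 without PAKG replicate 3 and 1117 without PAKG replicate 1. With the replicate number as a block, 29.5% of all genes tested changed (12.3% higher and 17.1% lower), which is the background for the counts with the block given below.

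Of 10 tested genes for TAM ligand carboxylation, shedding and signalling, 1 rose and 1 fell (20% beside 14.7% of all genes, median log2 fold change 0.03). Socs3, a feedback inhibitor of cytokine receptors that TAM signaling induces in myeloid cells, had 12.93, 11.83 and 13.52 FPKM in OC and 7.52, 6.22 and 7.27 in PAKG. All PAKG libraries lay below OC (log2 fold change -0.86, SE 0.10, limma adjusted p = 0.00152). Vkorc1, which recycles the vitamin K needed to carboxylate Gas6 and protein S, rose from 45.1 ± 7.73 to 67.9 ± 10.3 FPKM (0.59, adjusted p = 0.0401), a call lost in 6 of 15 alternatives. With the replicate block 3 genes of this list were higher and 3 lower (60% beside 29.5% of all genes).

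Of 21 tested genes for other phosphatidylserine receptors, bridging molecules and engulfment adaptors, 1 rose and 1 fell (9.52% beside 14.7% of all genes, median -0.07). Gulp1, an adaptor that binds the tails of Lrp1 and other engulfment receptors, rose from 12.1 ± 1.32 to 15.8 ± 1.30 FPKM (log2 fold change 0.39, limma adjusted p = 0.0440; lost in 8 of 15 alternatives). Anxa1, a phospholipid-binding protein exposed on apoptotic cells, fell from 184 ± 14.4 to 138 ± 15.3 FPKM (-0.42, adjusted p = 0.0347; lost in 5). With the replicate block 1 was higher and 3 were lower (19.0% beside 29.5%).

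Of 9 tested genes for other scavenger receptors, 3 rose and 2 fell (55.6% beside 14.7% of all genes, median 0.06). With the replicate block 3 were higher and 2 lower as well (55.6% beside 29.5%). Scara3, a class A scavenger-like protein, had 35.43, 33.29 and 32.73 FPKM in OC and 49.43, 55.23 and 50.90 in PAKG, without overlap (log2 fold change 0.61, SE 0.07, limma adjusted p = 0.00174). Scarf2, an EGF-repeat scavenger receptor, rose from 47.4 ± 2.84 to 60.4 ± 3.85 FPKM (0.35, adjusted p = 0.0253). Colec12, a collectin with a collagen-like stalk, fell from 27.4 ± 0.183 to 22.2 ± 0.866 FPKM (-0.30, adjusted p = 0.0178), and Scara5, a ferritin receptor, fell from 12.8 ± 1.14 to 9.55 ± 1.24 FPKM (-0.42, adjusted p = 0.0437). Scarf2, Colec12 and Scara5 lost their calls in 4, 5 and 9 of 15 alternatives. Mrc2, a collagen receptor of the mannose receptor family, rose from 26.6 ± 3.14 to 34.8 ± 2.95 FPKM (0.39, adjusted p = 0.0453; lost in 8 of 15 alternatives), and is named here after its values were seen. With libraries rescaled to a common total the calls left were the rises of Scara3 and Scarf2, and the falls of both Colec12 and Scara5 were also lost without PAKG replicate 1, PAKG replicate 3, OC replicate 1 or OC replicate 3.

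Of 13 tested genes of the LDL receptor family and partners of Lrp1, 3 rose and 1 fell (30.8% beside 14.7% of all genes, median 0.20). With the replicate block 8 were higher and 1 was lower (69.2% beside 29.5% of all genes). Mylip, a ubiquitin ligase that targets LDL receptors for degradation, had 7.12, 7.94 and 7.45 FPKM in OC and 10.16, 11.92 and 11.27 in PAKG (log2 fold change 0.56, SE 0.09, limma adjusted p = 0.00544), without overlap. Dab2, an endocytic adaptor for LDL receptor family tails, rose from 10.5 ± 0.580 to 16.0 ± 2.18 FPKM (0.60, adjusted p = 0.0101; lost in 1 of 15 alternatives). Lrp8, a reelin and apolipoprotein E receptor, fell from 2.50 ± 0.266 to 1.47 ± 0.307 FPKM (-0.74, adjusted p = 0.0221; lost in 6). Lrp5, the Wnt co-receptor of this family, was the only one of the 85 tested list genes past the fold threshold, at a log2 fold change of 1.01 (adjusted p = 0.00198). It lay below that threshold with a pseudocount of 1 (0.89). The same held without PAKG replicate 2 (0.91), OC replicate 1 (0.96) or OC replicate 3 (0.97).

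Of 9 tested genes for lipid uptake and efflux, 1 rose and 3 fell (44.4% beside 14.7% of all genes, median 0.05). With the replicate block 1 was higher and 3 lower as well (44.4% beside 29.5%). Cav1, the main coat protein of caveolae, had 106.79, 102.46 and 109.27 FPKM in OC and 56.32, 61.06 and 59.02 in PAKG, well apart (log2 fold change -0.85, SE 0.07, limma adjusted p = 0.000426). Its partner Cav2 fell from 29.2 ± 1.32 to 17.9 ± 1.25 FPKM (-0.70, adjusted p = 0.00145), and Fabp5, a fatty acid-binding protein, from 49.1 ± 5.71 to 28.8 ± 1.86 FPKM (-0.76, adjusted p = 0.00251). Npc2, which exports cholesterol from lysosomes, rose from 30.3 ± 2.04 to 39.2 ± 4.34 FPKM (0.37, adjusted p = 0.0471; lost in 7 of 15 alternatives).

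Of 23 tested genes of the phagocytic cup and early phagosome, 2 fell and 21 did not pass (8.70% changed beside 14.7% of all genes, median -0.09). With the replicate block 1 was higher and 6 were lower, a share (30.4%) near that of all genes (29.5%). Coro1c, an actin-binding coronin, had 14.94, 14.60 and 14.27 FPKM in OC and 9.68, 9.39 and 9.69 in PAKG, without overlap (log2 fold change -0.60, SE 0.06, limma adjusted p = 0.00117). Actr2, a subunit of the Arp2/3 complex that nucleates branched actin, fell from 64.1 ± 3.63 to 50.3 ± 2.07 FPKM (-0.35, adjusted p = 0.0174; lost in 4 of 15 alternatives).

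**Figure D5:**
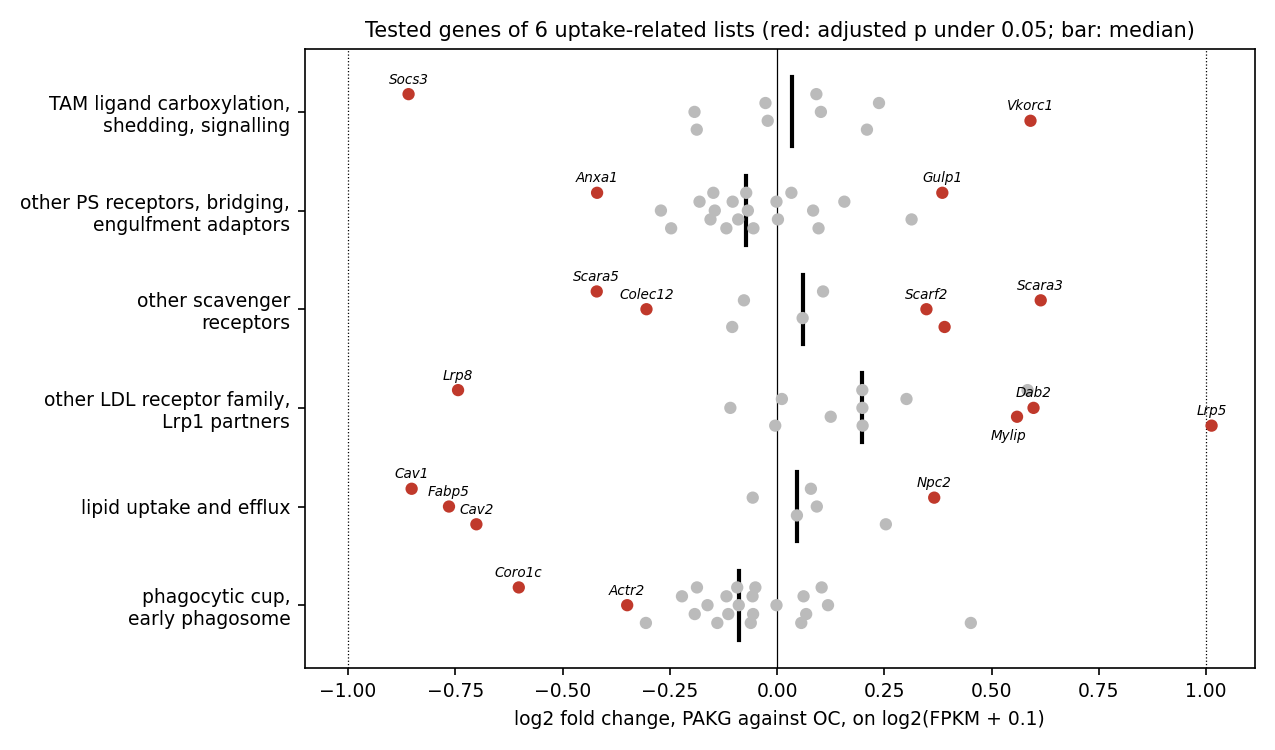
Log2 fold change of PAKG against OC (x axis, on log2(FPKM + 0.1)) for the tested genes of 6 lists (rows; PS, phosphatidylserine). Each point is a gene, red points passed an adjusted p under 0.05, black bars give the median of a list and dotted lines show a fold change of 2. Medians lie between -0.09 and 0.20, and Cav1, Cav2, Fabp5, Socs3 and Lrp8 form the lower end.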

How the data were processed

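RNA-Seq values of 6 libraries of MC3T3-E1 cells were analysed, 3 PAKG and 3 OC, grouped by their sample titles. The values are FPKM, in the table that the authors deposited for each library, rounded to 2 decimals. HISAT2 and StringTie, with cutadapt, FastQC and DESeq2, are the tools in the submitters' processing notes, on GRCm38, with versions and annotation release not given in the sources used here. DESeq2 is named in the paper for the group comparison, but a count model does not suit FPKM and none was fitted, and whole reads were not recovered. FPKM summed to between 289676 and 325818 per library. Depth was estimated from the step between low values of short genes with 1 transcript, as 0.0240 to 0.0312 FPKM per fragment on 1 kb.

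The comparison took every gene whose mean reached 0.5 FPKM, on log2(FPKM + 0.1) in R 4.3.3 with limma 3.58.1 (trend). The added 0.1 FPKM understates changes of low genes. Tables and figures used Python 3.11.15, and the steps were tested on simulated data. Coordinates are from GENCODE M21 (GRCm38), promoters from RefSeq (GRCm38.p6). The members and lists were chosen with earlier results of these data known. Text names all members, up to 4 changed genes per list by adjusted p, and the 2 most similar genes of each changed member. Deviations of same-numbered samples from their group means correlated at 0.192 to 0.430, above the minimum of 0.1, and those of other numbers at -0.312 to 0.138. The number was therefore used as a replicate block in an alternative, although the labels do not say that it pairs the samples. PAKG replicate 3 with OC replicate 1, at 0.138, was also above the minimum. The part in these correlations of the shift of replicate 2 with mRNA length was not tested. Alternatives were pseudocounts of 1 and 0.01, no filter or one at 1 FPKM, TPM (rescaling to a common total), scaling by median ratios, limma without trend, the block and each replicate left out. Leaving out replicate 2 of both groups was added after the data were seen.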

Additional observations from a re-analysis of the deposited data

How the results depend on the processing

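The fall of Axl kept its call under all 15 alternatives, at -1.04 to -0.84 with replicates left out. With replicates left out, the log2 fold change ranged from 0.19 to 0.41 for Mertk, -0.18 to -0.09 for Tyro3, 0.29 to 0.36 for Gas6, -0.34 to -0.29 for Pros1, -0.017 to 0.033 for Scarb1 and -0.18 to 0.21 for Lrp1. Scarb1 and Lrp1 were never called. The sign of Lrp1 turned with rescaling to a common total (0.037), with median-ratio scaling (0.016) and without replicate 2 of both groups (0.040), the last of which also turned Scarb1 (-0.012). The replicate block called Mertk (0.32, adjusted p = 0.0122) and changed no other call among the members; rescaling to a common total lost Pros1 (-0.26). With replicates left out, 1 to 3 members changed and 0 to 1 were differentially expressed, the latter being Axl without PAKG replicate 2 or without replicate 2 of both groups. The difference in the Axl share lay between -17.2 and -15.8 percentage points and that in the log2 ratio of Gas6 to Pros1 between 0.59 and 0.70. The number of changed list genes, with replicates left out, was 1 to 3 for TAM ligand carboxylation, shedding and signalling, 0 to 5 for other phosphatidylserine receptors, 1 to 5 for other scavenger receptors, 2 to 7 for the LDL receptor family, 3 to 4 for lipid uptake and 1 to 6 for the phagocytic cup. The replicate block gave 6 for the TAM list, 4 for phosphatidylserine receptors, 9 for the LDL receptor family and 7 for the phagocytic cup. For the TAM, phosphatidylserine and scavenger lists, no filter gave 1, 1 and 3 and no trend gave 1, 0 and 3. Rescaling to a common total gave 1 for phosphatidylserine receptors, 2 (both higher) for scavenger receptors and 1 for the phagocytic cup. Over all genes, 1850 changed, against 3711 with the block and 1664 without trend. With a single library left out, between 831 (without PAKG replicate 3) and 2227 (without PAKG replicate 2) changed. Without replicate 2 of both groups 2751 changed, and without the filter 1325 of 25742 did. The counts of members and list genes above are to be read beside these. Rescaling to a common total turned 751 higher and 1099 lower into 874 and 764, and median-ratio scaling into 879 and 977. Why calls moved between settings was not tested. Depth limits Megf10 and Cd36, whose values rest on few fragments and on 2 decimals.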

Other observations

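Of 37 listed genes with values below the filter of 0.5 FPKM, 2 passed the test when no filter was used. Both were chosen here after their values were seen. Over all genes, including those above the filter, 1325 of 25742 passed in that fit. The share among genes below the filter alone was not computed. Lrp1b, 1 of the 37, was at 0 FPKM in every library and received no test. Stab1, stabilin 1, a scavenger receptor that binds phosphatidylserine, had 0.20, 0.17 and 0.19 FPKM in OC and 0.60, 0.70 and 0.69 in PAKG (log2 fold change 1.41, SE 0.20, limma adjusted p = 0.0127). The groups of Stab1 did not overlap. Fcer1g, the signaling chain of Fc receptors, had 0.00, 0.16 and 0.11 FPKM in OC and 1.35, 0.80 and 0.55 in PAKG (2.43, SE 0.46, adjusted p = 0.0338). Csf1r, the receptor for the macrophage growth factor, had 0.09, 0.06 and 0.12 FPKM in OC and 0.29, 0.22 and 0.28 in PAKG but did not pass (0.94, adjusted p = 0.0673). The part of blood-derived cells in these low levels was not tested.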
